A study of Mus musculus with 6 samples.

Results

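The 37 genes described here encode enzymes that make serine, carry one-carbon units on folate, build purine and pyrimidine nucleotides, and move nitrogen through glutamine, glutamate, aspartate and proline. They were chosen by name from the deposited count table, which holds 24959 genes, and all 37 were found in it. RNA had been sequenced from samples labelled as dental epithelial cells of mice at postnatal day 0, when teeth are forming. The 3 control libraries carry the genotype label WT, and the 3 Pkm knockout libraries carry the label PKM knockout, a conditional deletion. The labels name no treatment, and the Cre driver, the deleted exon, the strain and any pooling of animals were not stated there. The design compares the knockout with the control, and the 37 genes were compared between these groups by branch of metabolism.

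Pkm encodes the M-type pyruvate kinases, which catalyse the last step of glycolysis. Serine synthesis leaves glycolysis above that step, at 3-phosphoglycerate, and serine then gives its side-chain carbon to folate. Folate one-carbon units and glycine enter the purine ring, glutamine gives nitrogen to purines, pyrimidines and asparagine, and aspartate gives carbon or nitrogen to both kinds of base. Dividing cells draw on all of these routes, and several of the enzymes come as a cytosolic and a mitochondrial form.

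Total counts were 30588350 to 39415700 per library. Pkm stood at 1049 to 1281 CPM (reads scaled to a common library size) in controls and at 309 to 395 CPM in the knockout libraries, a log2 fold change of -1.74 (SE 0.159, adjusted p 0.0109 by edgeR), so the labels held in every library. The adjusted p of Pkm was 0.0600 to 0.0792 when any 1 control was left out, and lower in all other alternatives (8.72e-18 at the lowest). The knockout libraries were less alike than the controls, with correlations of log2 CPM of 0.944 to 0.966 against 0.981 to 0.986, and Pkm cKO replicate 3 stood farthest from the rest. All 10 epithelial marker genes were present, summing to 13846 to 16178 CPM in control libraries, and 10571 to 12014 CPM in knockout libraries. Mesenchymal markers were abundant too. Their sum, mostly Col1a1 and Col1a2, overlapped (20100.2 to 31744 CPM against 18747 to 40659 CPM). Of the 12 genes, 10 had a log2 fold change above 0 (median 0.71), with Col1a1 at -0.09 and Col1a2 at -0.14. Higher without overlap were 8, among them Barx1, Msx1, Twist1 and Vim, against 11.2% of all tested genes. The 8 skeletal muscle genes summed to 3.05 to 4.98 CPM in control libraries, and to 78.8, 19.8 and 2892 CPM in cKO replicates 1 to 3. Enamel genes summed to 12391 to 27815 CPM against 1103 to 7233 CPM, immune genes to 79.5 to 86.6 CPM against 128 to 216 CPM, and erythroid genes to 574 to 801 CPM against 267 to 353 CPM. Endothelial genes (323 to 589.8 CPM) and neural or glial genes (104 to 429 CPM) overlapped between the groups. In bulk RNA, fewer cells of a type and less RNA per cell cannot be told apart, and the part of these differences in the results below was not tested.

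Of the 37 genes, 36 had enough reads to be tested. None of the 36 passed an adjusted p of 0.05 over all genes in edgeR's quasi-likelihood test, where 0.552% of all 15930 tested genes did. DESeq2 and limma-voom also called 0 members, where DESeq2 called 7.02% of all tested genes and limma-voom 0.0126%. At an unadjusted p under 0.05 there were 3 members with edgeR, 4 with DESeq2 and 3 with limma-voom, against 17.5% of all genes with edgeR. Of the 3 with edgeR, 2 were higher and 1 lower, beside 9.57% and 7.9% of all genes. The groups did not overlap for 5 members, 2 higher and 3 lower in the knockout libraries, against 23.3% of all tested genes. Log2 fold changes ran from -0.48 to 0.84, with 20 above 0 and 16 below. Their median was 0.04, beside 0.01 over all tested genes. The intervals tell how large a change these libraries leave possible: the distance from a member's log2 fold change to either end of its 95% interval had a median of 0.48 and ran from 0.34 to 1.04. For 10 members the whole interval lay within a 1.5-fold change in either direction, and for 28 within a 2-fold change. In 1 alternative, leaving out Pkm cKO replicate 1, Shmt1 passed (adjusted p 0.0482, the lowest of a range up to 0.566 over its alternatives).

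**Figure D1:**
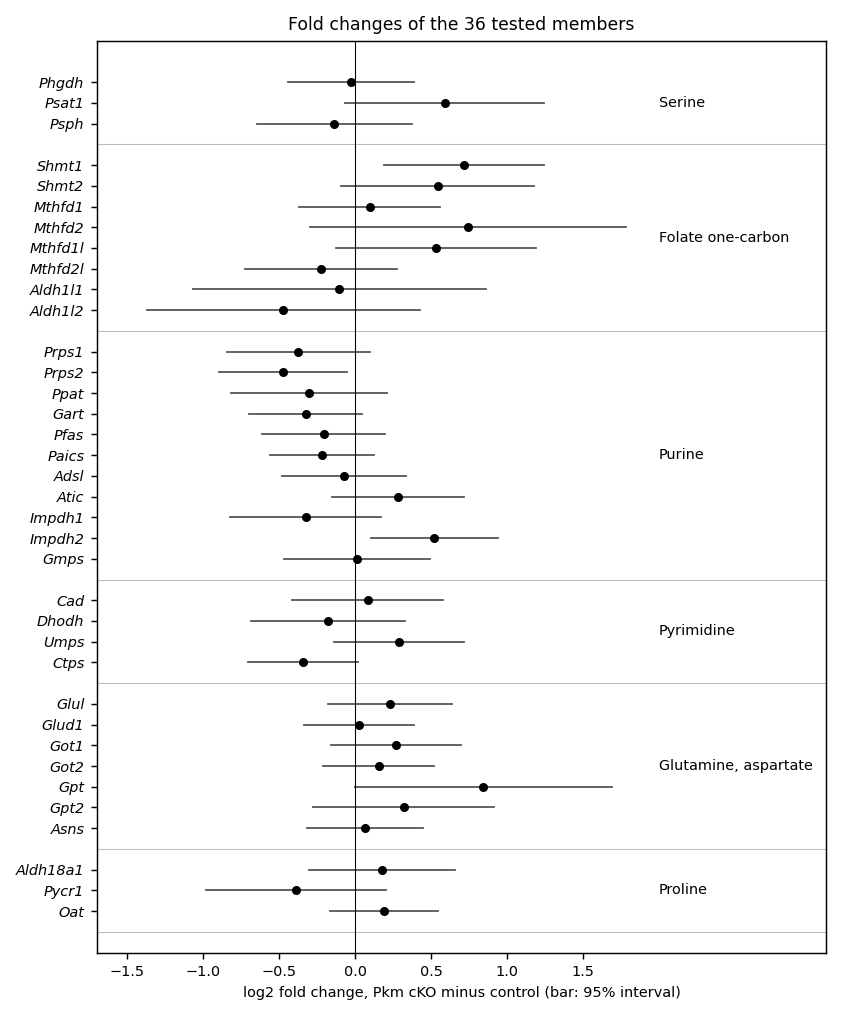
Log2 fold change (x axis, Pkm cKO minus control) of the 36 tested members with its 95% interval (bar), by branch. The intervals of Shmt1, Impdh2 and Prps2 lie on 1 side of 0 before adjustment for the number of genes tested, and all others shown include 0.

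By branch, the members of purine synthesis stood mostly lower, and those of glutamine, glutamate, aspartate and alanine use had log2 fold changes above 0. Of 11 purine genes, 8 had a log2 fold change below 0 (median -0.22), as did 7844 of all 15930 tested genes. Their median level against the control mean was -0.36, -0.13 and -0.064 in cKO replicates 1 to 3. Their summed CPM overlapped, at 644 to 665 in control libraries and 580, 663 and 626 in cKO replicates 1 to 3. All 7 genes of the glutamine to alanine branch were above 0 (median 0.23), as were 8086 of all 15930 tested genes. The median level of this branch against the control mean was -0.098, 0.36 and 0.26 in cKO replicates 1 to 3, so replicate 1 did not stand higher. The 8 tested genes of folate one-carbon metabolism had 5 above 0 and a median of 0.31, the 3 of serine synthesis a median of -0.02, the 4 of pyrimidine synthesis -0.05 and the 3 of proline and ornithine 0.18. The 12 tested mitochondrial enzymes had a median of 0.17 and the 24 others one of -0.01. These medians are descriptions of genes that were not called singly. The spread between replicates, as the SD of a branch's median level within groups, was 0.33 for the folate branch, 0.17 for the glutamine branch, 0.14 for proline and 0.11 for the purine branch on the log2 scale. With all 6 libraries the purine, glutamine and proline medians were larger than that spread and the folate, serine and pyrimidine medians were not. This comparison of sizes is not a test, since the spread is not the error of a difference between groups. With 1 library left out the glutamine median was 0.076 (without Pkm cKO replicate 2) or 0.11 (without Pkm cKO replicate 3). The proline median was 0.0068 (without control replicate 3), 0.012 (without Pkm cKO replicate 2) or 0.093 (without Pkm cKO replicate 3). All of these lay under the spread of their branch.

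The knockout libraries lay apart from one another across the members. Pkm cKO replicate 2 had the highest level of 17 of the 36 members, against 21.3% of all tested genes, and Pkm cKO replicate 1 the lowest level of 14, against 16% of all genes and with 0 members at their highest. Control replicate 2 was the highest for 0 members and the lowest for 1. Summed over the folate one-carbon genes, cKO replicates 1 to 3 held 159, 319.7 and 219 CPM, so that replicate 1 lay under the controls (165 to 182 CPM) and the other 2 above them. Summed over all members they held 1908, 2385 and 2244 CPM, on both sides of the controls (1992 to 2121 CPM).

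**Figure D2:**
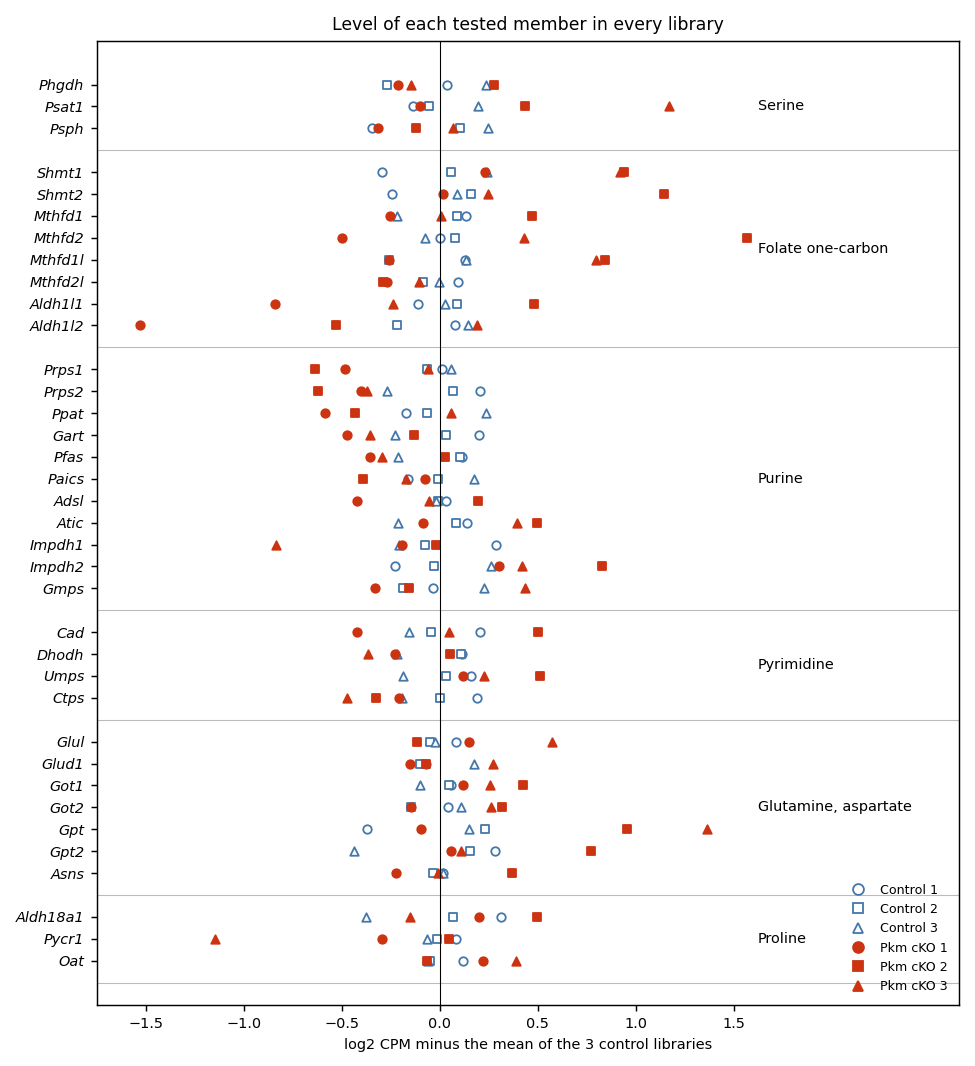
Level of each tested member in every library as log2 CPM minus the mean of the 3 controls (x axis), by branch, with open symbols for controls and filled symbols for Pkm cKO. Pkm cKO replicate 2 (filled squares) is the highest library for 17 of 36 genes and replicate 1 (filled circles) the lowest for 14.

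Serine synthesis runs from 3-phosphoglycerate through 3 enzymes. Phgdh, the dehydrogenase that commits carbon to the pathway, stood at 189, 153 and 217 CPM in control replicates 1 to 3 and at 159, 223 and 167 CPM in cKO replicates 1 to 3. The groups overlapped, and the log2 fold change was -0.02 (95% interval -0.44 to 0.39, adjusted p 0.962 by edgeR). Psat1, the aminotransferase of the next step, had 19.9, 21.1 and 25.1 CPM in control libraries against 20.4, 29.6 and 49.3 CPM. Only cKO replicates 2 and 3 lay above the controls for Psat1, with a log2 fold change of 0.59 (SE 0.293, adjusted p 0.334 by edgeR). Psph, the phosphatase that releases serine, overlapped as well, at 15.0 ± 3.05 CPM in control libraries, and 13.6 ± 1.80 CPM in knockout libraries (SD, n = 3 each). Per kilobase of exon, Phgdh was the most abundant of all 37 genes in controls, with 98.3 CPM per kb against 7.5 for Psat1 and 8.63 for Psph. That level of Phgdh is uncertain, since 63.1% of the 50-base stretches of its longest transcript also occur in transcripts of other annotated genes, mostly the processed pseudogene Gm7901, and how the authors counted such reads is not given.

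The hydroxymethyltransferases split serine into glycine and a one-carbon unit, Shmt1 in the cytosol and Shmt2 in mitochondria. Shmt1 (NCBI gene 20425) stood at 17.3, 22 and 25.1 CPM in control libraries and at 24.9, 40.7 and 40.1 CPM in knockout libraries. Replicates 2 and 3 of the cKO group exceeded every control, and replicate 1 lay just under the highest control. The log2 fold change of 0.72 (SE 0.236) had the lowest p of all members (unadjusted 0.0126) and did not pass after adjustment (adjusted p 0.166 by edgeR). Shmt2 had 57.7, 76.2 and 72.6 CPM against 69.2, 151 and 80.9 CPM, so that replicate 2 stood alone (log2 fold change 0.54, SE 0.280, adjusted p 0.355 by edgeR). Without that library the log2 fold change of Shmt2 was 0.13.

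Beyond serine, the folate enzymes pass the unit between oxidation states. Mthfd2, the mitochondrial dehydrogenase and cyclohydrolase typical of embryonic and dividing cells, was tight in controls at 10.1, 10.7 and 9.60 CPM. In knockout libraries it was spread over 7.14, 30.1 and 13.6 CPM, with 1 library under the controls and 2 above them (log2 fold change 0.74, SE 0.454, adjusted p 0.444 by edgeR). Without cKO replicate 2 the value was 0.04, and without replicate 1 it was 1.11 (adjusted p 0.0807 by edgeR, the lowest of a range up to 0.969). Mthfd1l, the mitochondrial formate-releasing synthetase, had 22.9 and 22.1 CPM in cKO replicates 2 and 3, against 10.6 CPM in replicate 1 and 10.6 to 14.0 CPM in controls. Mthfd2l, the paralog of Mthfd2 found in adult tissues, went the other way: its controls of 9.97, 8.78 and 9.29 CPM all lay above its knockout libraries of 7.72, 7.61 and 8.67 CPM. The size of that difference was small, at -0.22 on the log2 scale (SE 0.225, adjusted p 0.650 by edgeR).

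The remaining folate genes were Mthfd1, Aldh1l1, Aldh1l2 and Gldc. Mthfd1, the trifunctional cytosolic enzyme, averaged 43.1 ± 5.49 CPM in control libraries, and 46.0 ± 12 CPM in knockout libraries. The formyltetrahydrofolate dehydrogenases, which burn one-carbon units to carbon dioxide, were scarce: Aldh1l1 ranged from 1.13 to 2.91 CPM over all libraries and the mitochondrial Aldh1l2 from 2.33 to 7.8 CPM. Aldh1l2 was lowest in cKO replicates 1 and 2 and highest in replicate 3. Gldc, the decarboxylase of the glycine cleavage system, was too low to test, with 5, 5 and 3 reads in controls and 7, 15 and 27 reads in knockout libraries.

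**Figure D3:**
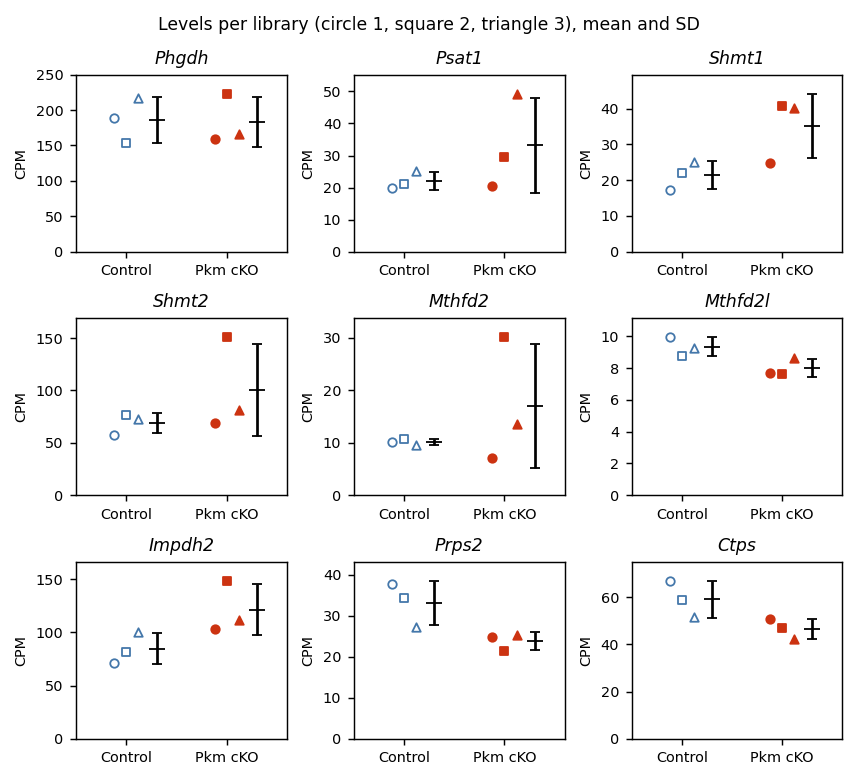
CPM (y axis, from 0) of 9 members in each library, with the mean and SD of each group beside the points. In Shmt2 and Mthfd2 the single cKO replicate 2 stands above the other 5 libraries, while Impdh2, Prps2, Ctps and Mthfd2l separate the groups without overlap by a small margin.

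Purine synthesis starts from ribose 5-phosphate, which Prps1 and Prps2 turn into phosphoribosyl pyrophosphate. Prps2 (NCBI gene 110639) stood at 37.9, 34.5 and 27.2 CPM in control libraries and at 24.9, 21.3 and 25.4 CPM in knockout libraries. The groups did not overlap (12.2% of all tested genes were lower in this way), and the log2 fold change was -0.48 (SE 0.188, unadjusted p 0.0299, adjusted p 0.234 by edgeR). Prps1 had controls of 18.6 to 20.2 CPM, with cKO replicates 1 and 2 at 13.9 and 12.5 CPM and replicate 3 at 18.6 CPM. Ppat, the amidotransferase that commits the pathway, had 17.2, 18.6 and 22.9 CPM in control libraries against 12.9, 14.4 and 20.2 CPM. Only the first 2 knockout libraries lay under its controls (log2 fold change -0.31, SE 0.231, adjusted p 0.531 by edgeR).

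The next steps build the ring. Gart, Pfas and Paics, the enzymes of the middle steps, had log2 fold changes of -0.33, -0.21 and -0.22, with adjusted p of 0.349, 0.595 and 0.510 in edgeR's test. Adsl, which acts in the pathway and again in AMP synthesis, stood at -0.07. Atic, the enzyme of the last 2 steps to IMP and a user of formyl folate, was the 1 gene of this stretch above 0, at 40.1 ± 5.07 CPM in control libraries, and 48.7 ± 9.87 CPM in knockout libraries (log2 fold change 0.28, SE 0.194). Ppat and Paics are neighbours whose annotated transcripts share sequence (5.67% of the 50-base stretches of Ppat lie in other genes and 12.1% of those of Paics), so without a stated strand setting their reads cannot be fully told apart.

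IMP is then turned to GMP by an IMP dehydrogenase and Gmps. Impdh2 (NCBI gene 23918), the dehydrogenase of dividing cells, stood at 71.5, 82.0 and 100.1 CPM in control libraries and at 103, 149 and 112 CPM in knockout libraries. All knockout libraries lay above all controls, as 11.2% of tested genes did, though replicate 1 exceeded the highest control by little (log2 fold change 0.52, SE 0.188, unadjusted p 0.0197, adjusted p 0.201 by edgeR). Of its 50-base stretches 73.9% are shared with the processed pseudogene Impdh2-ps, so its level depends on how shared reads were counted. Impdh1, the constitutive paralog, had 96.0, 74.6 and 68.1 CPM in control libraries against 68.8, 77.7 and 44.0 CPM, with overlap and a log2 fold change of -0.33 (SE 0.223). Gmps, the GMP synthetase, was level on average (log2 fold change 0.01, 95% interval -0.47 to 0.49).

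Myc, a transcription factor that binds the E-box CACGTG and is known to drive nucleotide genes, stood at 36 ± 2.92 CPM in control libraries, and 50.2 ± 12 CPM in knockout libraries (log2 fold change 0.48, adjusted p 0.249 by edgeR). The RefSeq promoter table (GRCm38.p6, 250 bases before to 50 after the start, an older build than the authors' mm39) held 33 of the 37 members. CACGTG, which reads the same on both strands, occurred in 4 of these 33 genes (Impdh2, Atic, Paics and Aldh18a1), and in 8.09% of all 27025 genes of the table. Those 4 genes had log2 fold changes of both signs. The 250 bases upstream of Impdh2 are shown because it is the purine gene that stood higher without overlap, with the E-box in capitals (chr9:108560186-108560435, plus strand).
Impdh2: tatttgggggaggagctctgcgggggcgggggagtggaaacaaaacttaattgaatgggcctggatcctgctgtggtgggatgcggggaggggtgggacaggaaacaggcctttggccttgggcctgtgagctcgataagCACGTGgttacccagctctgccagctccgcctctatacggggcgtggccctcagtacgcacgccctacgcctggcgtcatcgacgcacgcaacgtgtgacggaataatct

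Pyrimidine synthesis has 4 listed enzymes. Cad, the trifunctional protein that starts the pathway from glutamine, had 100.1, 83.9 and 77.8 CPM in control libraries, and 64.7, 123 and 89.5 CPM in knockout libraries. Its knockout libraries lay below, above and among the controls, with a log2 fold change of 0.08 (95% interval -0.42 to 0.58, adjusted p 0.882 by edgeR). Dhodh, the mitochondrial dehydrogenase coupled to the respiratory chain, was at 11.4 ± 1.46 and 10.1 ± 1.53 CPM, and Umps, which makes UMP, at 21.3 ± 2.57 and 26.0 ± 3.78 CPM. Ctps, the CTP synthetase that spends glutamine, was lower in each cKO library (50.7, 46.8 and 42.3 CPM) than in any control (67.0, 58.7 and 51.4 CPM). The margin between groups was under 1 CPM, and the log2 fold change was -0.34 (SE 0.163, adjusted p 0.314 by edgeR).

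In the glutamine to alanine branch, Glul makes glutamine from glutamate and ammonia. It stood at 217, 197 and 201 CPM in control libraries, and 227, 189 and 304.8 CPM in knockout libraries, with replicate 3 high and a log2 fold change of 0.23 (SE 0.183, adjusted p 0.555 by edgeR). Without that library the value was 0.032, and without Pkm cKO replicate 2 it was 0.38. Glud1, the mitochondrial glutamate dehydrogenase, overlapped closely, at 135, 132 and 160.4 CPM for controls, against 128, 135 and 172 CPM for the knockout (log2 fold change 0.02, 95% interval -0.34 to 0.39, adjusted p 0.961 by edgeR). Got1, the cytosolic aspartate aminotransferase, was higher without overlap, at 15.0, 14.9 and 13.4 CPM in control libraries, and 15.6, 19.3 and 17.2 CPM in knockout libraries. The lowest cKO library exceeded the highest control by under 1 CPM, and the log2 fold change of 0.27 (SE 0.193, adjusted p 0.511 by edgeR) was small. Got2, its mitochondrial partner, averaged 189 ± 16.9 and 211 ± 35.3 CPM, with 47.2% of its 50-base stretches shared with other annotated genes.

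The alanine aminotransferases turn pyruvate, the product of pyruvate kinase, and glutamate into alanine. Gpt, the cytosolic form, had the highest log2 fold change of the 36 members, 0.84 (SE 0.380, unadjusted p 0.0505, adjusted p 0.287 by edgeR), from 3.57, 5.44 and 5.14 CPM in controls to 4.33, 9.04 and 12 CPM in knockout libraries. Replicate 1 lay among the controls and the other 2 above them. Gpt2, the mitochondrial form, had 27.7 CPM in cKO replicate 2 and 11.9 to 19.7 CPM in the other 5 libraries. Asns, which makes asparagine from aspartate and glutamine and is a classic target of the amino acid stress factor ATF4, was at 65.2, 63.0 and 65.2 CPM in controls. Its knockout libraries, at 55.1, 83.0 and 64.0 CPM, lay on both sides of that narrow range (log2 fold change 0.06, SE 0.172, adjusted p 0.880 by edgeR).

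Proline and ornithine share glutamate semialdehyde as an intermediate. Aldh18a1, the synthase that makes it from glutamate, stood at 90.3, 76.3 and 56.0 CPM in control libraries and at 83.5, 103 and 65.5 CPM in knockout libraries, with overlap (log2 fold change 0.18, SE 0.216, adjusted p 0.716 by edgeR). Pycr1, the mitochondrial reductase that completes proline, was at 44.6 to 49.4 CPM in control libraries and at 38.0, 48.2 and 21.1 CPM in knockout libraries, lowest in replicate 3 (log2 fold change -0.39, SE 0.265). Oat, the ornithine aminotransferase, averaged 78.8 ± 5.59 and 89.8 ± 13.9 CPM.

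ATF4 and C/EBP factors bind a composite site whose core was searched as TGATGNAA on both strands. It occurred in 4 of the 33 member genes in the promoter table (Asns, Got1, Pycr1 and Prps1) and in 4.51% of all 27025 genes of the table. The log2 fold changes of the 4 genes were 0.06, 0.27, -0.39 and -0.38, so the genes with the core did not share a direction. The 250 bases upstream of the 3 amino acid genes among them are shown with the core in capitals, as it reads on the gene's strand (GRCm38.p6, minus strand: Asns chr6:7693210-7693459, Got1 chr19:43524606-43524855 and Pycr1 chr11:120643749-120643998). In Got1 the capitals hold the reverse complement of the core.
Asns: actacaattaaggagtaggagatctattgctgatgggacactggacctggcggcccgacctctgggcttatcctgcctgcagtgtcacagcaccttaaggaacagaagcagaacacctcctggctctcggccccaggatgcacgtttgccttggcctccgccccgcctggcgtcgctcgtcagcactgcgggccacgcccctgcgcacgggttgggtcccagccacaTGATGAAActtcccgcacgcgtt
Got1: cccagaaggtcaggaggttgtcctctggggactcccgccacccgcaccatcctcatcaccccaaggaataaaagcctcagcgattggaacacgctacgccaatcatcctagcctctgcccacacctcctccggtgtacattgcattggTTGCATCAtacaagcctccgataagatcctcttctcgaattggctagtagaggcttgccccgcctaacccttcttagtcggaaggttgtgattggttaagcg
Pycr1: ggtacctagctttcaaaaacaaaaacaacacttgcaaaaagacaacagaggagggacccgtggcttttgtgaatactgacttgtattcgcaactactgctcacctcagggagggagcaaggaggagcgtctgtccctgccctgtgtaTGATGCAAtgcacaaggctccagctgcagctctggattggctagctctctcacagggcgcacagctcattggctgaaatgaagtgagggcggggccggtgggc

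**Figure D4:**
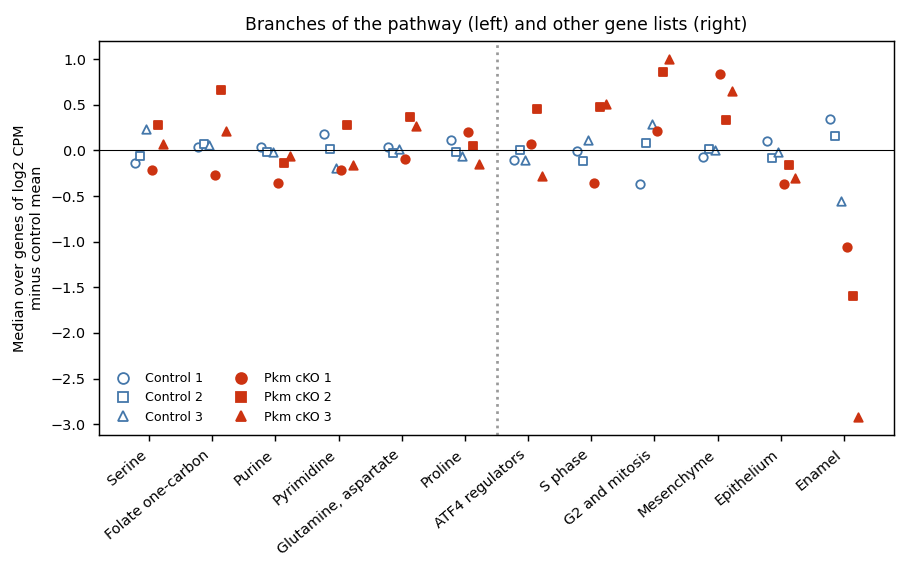
Median over genes of log2 CPM minus the control mean (y axis) in each library, for the 6 branches (left of the dotted line) and for other gene lists (right). The folate branch stands at -0.27, 0.66 and 0.22 in cKO replicates 1 to 3, and the S phase list at -0.35, 0.48 and 0.51.

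The regulators and cell cycle genes measured beside the branches varied between the same libraries. Of 9 genes of ATF4 signaling and amino acid stress, 6 were highest in cKO replicate 2, against 21.3% of all tested genes. Lowest in replicate 3 were 5 of them, against 23.5% of all tested genes. Trib3, a pseudokinase induced by ATF4, stood at 0.218, 0.621 and 0.337 CPM in control libraries, and 0.872, 5.32 and 2.11 CPM in knockout libraries (log2 fold change 2.81, SE 0.706, adjusted p 0.0997 by edgeR). The adjusted p of Trib3 ran from 0.00243 (DESeq2) to 0.397 over the alternatives. Atf4 itself stood at 190.1 ± 18.3 and 215 ± 37 CPM. Ddit3, another gene of that response, pointed the other way (16.2 ± 3.41 and 12 ± 2.48 CPM), and Nupr1 stood at 7.31 ± 1.96 and 10.1 ± 0.661 CPM. The 15 S phase genes summed to 548 to 654 CPM in control libraries, and to 506, 897 and 881 CPM in cKO replicates 1 to 3, and the 15 genes of G2 and mitosis to 589.5 to 905 CPM and to 846, 1369 and 1588 CPM. Pkm cKO replicate 1 was the lowest knockout library in the folate branch and in both cell cycle sums. Replicate 2 was the highest in the folate branch and in the S phase sum, and replicate 3 in the G2 and mitosis sum. The part of cell division or of ATF4 signaling in the folate branch was not tested.

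The other genes of these pathways were taken from 9 metabolic and regulatory lists beyond the members plus the Myc and mTORC1 list, with 103 tested genes in all. Of these 103, 1 passed over all genes, higher in knockout libraries, and 0 lower, against 0.552% of all tested genes. The median log2 fold change was 0.04. The gene that passed was Adssl1, the adenylosuccinate synthase of muscle, at 1.80, 3.44 and 2.33 CPM in control libraries, and 7.24, 8.84 and 12.3 CPM in knockout libraries (log2 fold change 1.90, SE 0.348, adjusted p 0.0496 by edgeR). Its adjusted p was over 0.05 without any 1 of the 3 controls (0.191 to 0.268) and without cKO replicate 2 (0.0626) or 3 (0.0629). It was also over 0.05 with limma-voom (0.0730) and in edgeR without robust estimation, where 0 genes passed as higher. Over all alternatives its adjusted p ran from 7.81e-06 to 0.268. The 8 skeletal muscle genes were also all higher without overlap in the knockout libraries. The muscle sum was 78.8, 19.8 and 2892 CPM in cKO replicates 1 to 3. Among these libraries the muscle sum and Adssl1 were both highest in replicate 3. The muscle sum was lowest in replicate 2 and Adssl1 in replicate 1. The part of the muscle genes in the Adssl1 result was not tested.

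In purine interconversion and salvage, 11 of 17 tested genes were below 0 (median -0.21), as were 7844 of all 15930 tested genes. Nme1 and Nme2, the nucleoside diphosphate kinases that turn diphosphates into triphosphates, had the lowest p among the genes below 0. Nme1 stood at 183, 172 and 165 CPM in control libraries, and 120.0, 115 and 82.1 CPM in knockout libraries, and Nme2 at 297, 303.8 and 294.5 CPM against 224, 198 and 203 CPM. Neither pair of groups overlapped, and neither gene passed in edgeR's test (adjusted p 0.0889 and 0.103), while DESeq2 gave 0.0131 and 0.0213, the lowest values of ranges up to 0.383 and 0.402 over the alternatives. Nme1 and Nme2 are close copies, and reads may have been divided between them.

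Among the folate carriers and thymidylate genes 7 of 15 were above 0 (median -0.00), with Ggh and Slc19a1 at log2 fold changes of -0.48 and 0.49. In the methionine cycle list Ahcyl2, a homolog of the hydrolase of S-adenosylhomocysteine, was at 233 ± 44.5 and 144 ± 10.4 CPM (log2 fold change -0.69, SE 0.171, adjusted p 0.0954 by edgeR), and the next genes by p were Gnmt (0.73) and Ahcyl1 (0.19). DESeq2 passed Ahcyl2 (adjusted p 0.0156, the lowest of a range up to 0.403). Deoxynucleotide and pyrimidine salvage genes had a median of 0.08, with Upp1 at 0.78, Cmpk1 at -0.32 and Dctd at 0.58. Among carriers of glutamine, serine and related amino acids, Slc7a11, the cystine and glutamate exchanger, stood lower without overlap (12.4 ± 2.29 and 8.19 ± 1.48 CPM, adjusted p 0.254 by edgeR), and Slc1a4 had 27.6 and 30.1 CPM in cKO replicates 2 and 3 against 9.43 to 14.9 CPM elsewhere. Its adjusted p was 0.0304 without Pkm cKO replicate 1 and up to 0.670 over the alternatives.

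The malate-aspartate shuttle, which uses Got1 and Got2, had 4 of 6 further genes below 0 (median -0.09). Slc25a13, its aspartate and glutamate carrier, was at 44.3 ± 2.98 and 34.0 ± 4.67 CPM (adjusted p 0.282 by edgeR), Slc25a11 at a log2 fold change of -0.32 and Mdh1 at -0.16. Proline breakdown and related genes had a median of -0.22, with Prodh at 1.01, Arg1 at 2.13 and Odc1 at -0.43. Serine and glycine users had a median of 0.14, with the racemase gene Srr at -0.41, Gatm at 1.63 and Gamt at 0.80. Arg1, Gatm and Gamt were high in cKO replicate 3 alone, and without that library their log2 fold changes were -0.021, -0.011 and -0.23. In the Myc and mTORC1 list Myc came first by p, followed by Mtor (-0.35) and Rps6kb1 (-0.25).

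Ratios of 2 paralogs within a library do not depend on scaling, and 7 pairs were compared after the values of their genes had been seen. With 3 libraries against 3, the exact two-sided permutation test cannot go below a p of 0.100. Impdh2 to Impdh1 was the 1 pair whose groups did not overlap: the ratio of CPM was 0.745, 1.10 and 1.47 in the control libraries and 1.5, 1.91 and 2.54 in the knockout libraries, each in order of replicate. The lowest cKO ratio was close to the highest control ratio (difference of mean log2 ratios 0.87, exact permutation p 0.100, adjusted 0.600 over the 7 pairs). Mthfd2 to Mthfd2l stood at 1.01, 1.22 and 1.03 in controls and at 0.925, 3.95 and 1.57 in knockout libraries (exact permutation p 0.400). For the other 5 pairs the exact permutation p was 0.400 to 0.600, and Shmt2 to Shmt1 had a mean log2 ratio of 1.69 in controls and 1.46 in knockout libraries.

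**Figure D5:**
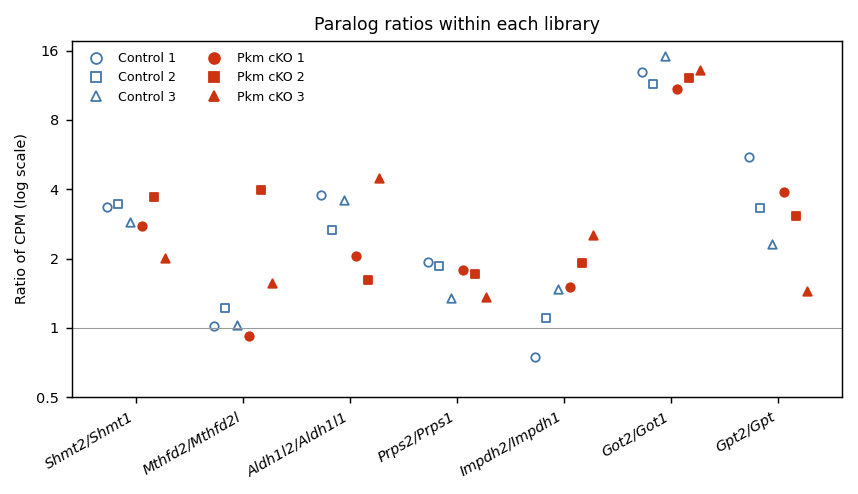
Ratio of CPM (y axis, log scale) of the first to the second gene of each paralog pair in every library. The knockout libraries lie above all controls for Impdh2 to Impdh1 (1.5 to 2.54 against 0.745 to 1.47) and overlap the controls in the other 6 pairs.

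Levels between genes were compared only per kilobase of exon, with lengths from GENCODE M21. In controls the most abundant after Phgdh were Got2 (74.9 CPM per kb), Glul (73.4), Paics (69.0) and Impdh2 (45.5), and the least were Aldh1l2 (1.13), Aldh1l1 (0.496) and Gldc (0.0304). The mitochondrial Shmt2 (29.9) stood above the cytosolic Shmt1 (7.51) and Got2 above Got1 (7.0), while Mthfd2 (4.85) and Mthfd2l (3.47) were close. Over 20% of the 50-base stretches were shared with other genes for 4 of the 37 members, Phgdh, Psph, Impdh2 and Got2, and their levels are the least certain.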

How the data were processed

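RNA from 3 control and 3 Pkm cKO samples at postnatal day 0 was sequenced, from 200 ng of total RNA per library per the labels' protocols. The authors deposited whole-number read counts per gene, with HISAT2, fastp and build mm39 named per the submitters' processing notes. Not given in the sources used here are versions, the counting program, the strand setting and the annotation. Groups and replicate numbers came from the labels. Replicates are labelled as biological, with no statement on single or pooled animals, so p-values measure the variation among these samples. No libraries were duplicates (chi-square per gene at least 28.3).

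From these counts, genes were kept by filterByExpr, scaled by TMM and compared with edgeR's quasi-likelihood test (edgeR 4.0.16, robust, R 4.3.3), two-sided, with Benjamini-Hochberg adjustment over all 15930 tested genes and a threshold of 0.05. SE is the fold change over the square root of F, and 95% intervals use the test's t distribution. CPM use scaled library sizes, and log2 CPM a prior count of 2. Alternatives were other scalings and filters, DESeq2 1.42.0, limma-voom (limma 3.58.1), no robust estimation, the replicate block and leaving out each library. The procedure was tested on simulated counts. The 37 members and all lists were chosen with earlier results of these data known. Libraries were described in full for the 11 entry enzymes and for members with an unadjusted p under 0.05 or groups without overlap, and up to 3 genes by lowest p were named per other list, apart from 2 genes that are not reported here. Atf4, the paralog pairs, the shared-sequence check, the motifs and the ranking of libraries were chosen after values were seen. Of 210 entries in 20 other lists, 207 were found. The genome reference at hand was GRCm38, so it served only for names, exon lengths, shared sequence and promoters.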

Additional observations from a re-analysis of the deposited data

How the results depend on the processing

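Under the 14 alternatives no member was called except Shmt1 without Pkm cKO replicate 1, so 0 to 1 were called when a library was left out. The count of all genes called, 88 (55 higher, 33 lower), was 55 with DESeq2 size factors in edgeR, 518 with no filter beyond 1 read, 1118 with DESeq2, 2 with limma-voom and 2 without robust estimation. Upper-quartile scaling called 57 higher and 18 lower. Leaving out a library gave 0 to 640: 0 without control replicate 1, 2 or 3 (edgeR, with 1532, 1766 and 2495 genes under 0.05 before adjustment), 640 without Pkm cKO replicate 1 and 186 without replicate 2. The replicate block called 708 genes and 0 members (6 members at an unadjusted p under 0.05). Same-numbered samples shared deviations at r = 0.235, 0.0150 and 0.215, and differently numbered samples at -0.278 to 0.0703. Not every sample correlated best with its own number. The numbers were not taken as pairs because the labels do not say that they pair the groups, and these values do not settle it.

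The folate median ran from -0.040 (without Pkm cKO replicate 2, 8 genes) to 0.75 (without Pkm cKO replicate 1, 9 genes). These ends are not over the same genes, since Gldc, with few reads, passed the filter only in the second. The proline median ran from 0.0068 (without control replicate 3) to 0.24, with 0.012 without Pkm cKO replicate 2. The median over all members ran from -0.12 (36 members) to 0.17 (37 members, with Gldc). The glutamine median ran from 0.076 to 0.28, pyrimidine from -0.24 to 0.063, serine from -0.13 to 0.095 and purine from -0.24 to -0.17. Upper-quartile scaling put Phgdh at 0.018. With a library left out, log2 fold changes crossed 0 for Phgdh (-0.19 to 0.10), Cad (-0.17 to 0.28), Glud1 (-0.11 to 0.11), Asns (-0.11 to 0.19), Arg1 (-0.021 to 2.68), Gatm (-0.011 to 2.08) and Gamt (-0.23 to 1.18), none of them called. The cause was not tested. Low counts limit Gldc and Aldh1l1, the latter with 35 to 100 reads per library.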
